A study of Rattus norvegicus with 4 samples.

Results

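The subject is how the response of rat soleus to overload differed between muscle that had regenerated from an earlier injection and muscle that had not. For each gene the overload difference in regenerated muscle (regenerated overloaded less regenerated) was reduced by the overload difference in normal muscle (overloaded less normal), on the log2 scale. A positive value of this difference of differences means that overloaded regenerated muscle stood higher, relative to its own unloaded state, than overloaded normal muscle did relative to its own. Genes were kept where their probe was printed 2 or more times and was well above background on all 4 arrays, and 8961 of the 26633 genes and transcripts on the array (33.6%) met this rule. Of these, 7533 carried a gene symbol in the reference table and 1428 did not. The measured difference was not used to choose them.

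Messenger RNA of the soleus, taken from male rats, was read on 4 Agilent arrays with 1 dye, 1 array for each group, and each carried RNA mixed in equal amounts from 6 muscles. The groups were normal muscle at 16 weeks of age, regenerated muscle at 16 weeks of age and 8 weeks after an injection labelled CTX, overloaded muscle at 18 weeks (described as hypertrophied), and regenerated muscle after overloading at 18 weeks. The labels do not expand CTX, do not say how or for how long the load was raised, and do not give the time since injection for the regenerated overloaded group. The letter that closes a sample's name is R for the normal pair and L for the regenerated pair, and the labels leave unsaid whether a rat gave muscle to more than 1 group. With 1 pooled array per group (n = 1) no difference has a replicate check, no test between groups was possible and no p-value is given. Pooling also hides the spread between animals. Errors given below are technical standard errors (SE), taken from probes spotted more than once on an array.

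Both unloaded groups lay in row 1 of the slide, in columns 3 and 4, and came from the younger rats. Both overloaded groups lay in row 2, in columns 1 and 2, and came from the older rats. Row, column and age therefore cannot be told apart from overload in either kind of muscle. Within the regenerated pair the time since injection may differ as well. On the normal array 60.4% of spots were well above background, and between 68.1% and 70.6% on the other arrays, and the median local background was 44 intensity units on the normal array against 32 to 33. Each array's values are given as signal in multiples of that array's 75th percentile. Values of different genes come from different probes and are not compared in level. In RNA from whole muscle, fewer cells of a type and less RNA per cell cannot be told apart.

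The soleus is a postural muscle of the lower leg built mostly of slow fibres, which carry the slow myosin heavy chain and its slow troponin partners, with a minority of fast fibres that carry the 2A, 2X or 2B myosins. When a synergist is lost or load is raised in another way, fibres thicken, connective tissue expands and fast fibre types shift toward slower ones. After destruction by a toxin, muscle rebuilds its fibres from satellite cells, and macrophages, fibroblasts and their matrix accompany that repair. Of 18 listed slow contractile genes 15 were members, 2 had no probe matched to their symbol and 1 was printed once. The rule itself requires members to be well above background on every array, so this is no check of the tissue label. Myh7, the slow myosin heavy chain, had a signal of 375 in normal, 338 in regenerated, 315 in overloaded and 285 in regenerated overloaded muscle. Its overload difference was -0.25 on the log2 scale in both kinds of muscle, and the difference of differences was 0.00 (SE 0.07).

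Most genes differed little between the 2 overload responses. The median difference of differences over all 8961 members was 0.05, with quartiles of -0.12 and 0.18, and 92.8% of members lay within 0.5 of 0 on the log2 scale. The limit used throughout is 2-fold, which is 1 on the log2 scale. By that limit 34 genes (0.379%) had a higher overload difference in regenerated than in normal muscle and 38 (0.424%) a lower one. Of these 72 genes, 31 and 32 carried a symbol, and 71 lay past 3 technical SE. With the authors' own scaling factor per array the split moved from 34 higher and 38 lower to 25 higher and 68 lower, and the median over all members moved from 0.05 to -0.08.

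**Figure D1:**
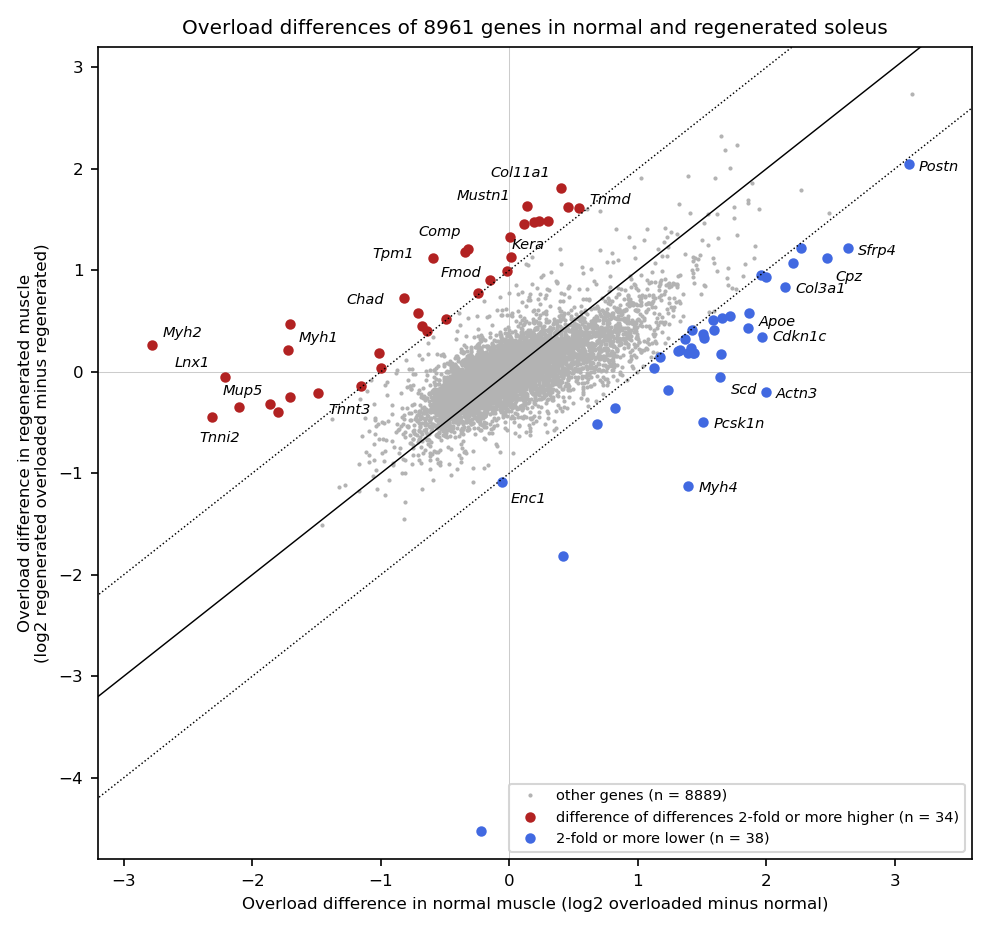
Overload difference in normal muscle (x axis, log2 overloaded minus normal) against that in regenerated muscle (y axis, log2 regenerated overloaded minus regenerated) for 8961 genes. The solid line marks equal responses and the dotted lines 2-fold apart; the 34 red and 38 blue points lie past them, with Myh2 farthest to the upper left among named genes and Myh4 alone past 2-fold upward in normal and downward in regenerated muscle.

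Overload differences were wider in normal than in regenerated muscle. In normal muscle 230 genes (2.57%) were 2-fold or more higher after overload and 39 (0.435%) were lower, whereas in regenerated muscle 88 (0.982%) were higher and 18 (0.201%) lower. The share of normal-muscle calls that were higher was 85.5%, and it was 74.2% with scaling to each array's median and 96.7% with the authors' factor. The standard deviation over genes was 0.42 in normal and 0.31 in regenerated muscle on the log2 scale. Across the 8961 genes the 2 differences, which share no array, had a Pearson correlation of 0.71 and a Spearman correlation of 0.70. That is a description across genes, which are not independent replicates, and both differences share the age and slide-row contrast.

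Genes past 2-fold in one kind of muscle were often short of it in the other. Of the 230 genes higher in normal muscle, 57 (24.8%) were also 2-fold higher in regenerated muscle, 172 passed neither limit there and 1, Myh4, was 2-fold lower. Their median difference was 1.23 in normal and 0.73 in regenerated muscle. Taken from the other side, the 57 shared genes were 64.8% of the 88 genes higher in regenerated muscle, and the median over those 88 genes was 1.31 in normal and 1.29 in regenerated muscle. A list chosen on one comparison has its own values drawn outward by that choice, so both directions of choice are given. Of the 39 genes lower in normal muscle and the 18 lower in regenerated muscle, 6 were shared (15.4% and 33.3%).

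The 34 genes with a higher response in regenerated muscle fell into 3 kinds. Overload left 13 of them 2-fold higher in regenerated muscle and within 2-fold in normal muscle, 12 were 2-fold lower in normal muscle and within 2-fold in regenerated muscle, and 9 passed neither limit. Of the 38 with a lower response, 27 were 2-fold higher in normal muscle and within 2-fold in regenerated muscle, 5 were higher in both, 3 were lower in regenerated muscle alone, 2 passed neither limit and Myh4 went opposite ways. Among these 38 genes the normal array had the lowest of the 4 values in 35, which the arithmetic of the difference favours, while over all members the normal array was lowest in 27.4% and highest in 52.3%. That array also had the fewest spots well above background. With normexp, a background correction that shrinks differences between dim signals, the counts of 34 and 38 became 18 and 17.

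Genes of the fast contractile apparatus held the largest named differences, and they went both ways. Of 17 fast contractile genes, 7 had a 2-fold higher response in regenerated muscle (against 0.379% of all members), 2 had a 2-fold lower one (against 0.424%) and 8 passed neither limit. The 7 include Tpm1, which lay at 0.90 as the mean of its 2 probes. The list's median was 0.51 beside 0.05 for all members, from medians of -0.60 for overload in normal and -0.02 in regenerated muscle, and under other scalings it lay between 0.24 and 0.56.

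Myh2 encodes the heavy chain of the fast 2A myosin. Its signal was 10.5 in normal, 1.53 in overloaded, 3.22 in regenerated and 3.86 in regenerated overloaded muscle. It was therefore high in normal muscle alone, 6.85-fold lower after overload there and 1.20-fold higher after overload in regenerated muscle, a difference of differences of 3.04 (SE 0.079). A further probe of Myh2 gave 3.02. The 2X heavy chain gene Myh1 had signals of 2.09 in normal and 0.635 in overloaded muscle, and of 2.70 and 3.12 in regenerated and regenerated overloaded muscle, so that the overloaded array alone was low (1.93, SE 0.085). Myh4, the 2B heavy chain gene, ran the other way, with 0.248 in normal, 0.651 in overloaded, 0.551 in regenerated and 0.253 in regenerated overloaded muscle. It was 2.63-fold higher after overload in normal and 2.18-fold lower in regenerated muscle (-2.52, SE 0.13). One of its 2 spots lies in the outer rows of the array, and the other spot alone gave -2.49. Myosin heavy chain genes are alike in sequence, so their probes may not be specific to 1 of them.

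Of the 3 fast troponin subunits, 2 were past the limit on the higher side. Tnni2, the inhibitory troponin subunit of fast fibres, had a signal of 54.0 in normal, 10.9 in overloaded, 28.3 in regenerated and 20.8 in regenerated overloaded muscle. Overload thus went with a 4.96-fold lower signal in normal and a 1.36-fold lower one in regenerated muscle (1.87, SE 0.074). Tnnt3, the fast tropomyosin-binding troponin, stood at 14.9, 5.31, 7.68 and 6.64 in the same order, a difference of differences of 1.28 (SE 0.077). The calcium-binding fast subunit Tnnc2 passed neither limit, with -0.53 in normal and -0.02 in regenerated muscle.

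Pvalb, the calcium buffer parvalbumin of fast fibres, was low on the overloaded array alone: its signal was 3.43 in normal, 1.72 in overloaded, 3.49 in regenerated and 3.57 in regenerated overloaded muscle (1.03, SE 0.080). Myom2, a structural protein of the M-band, had 4.57 in normal and 2.85 in overloaded muscle against 1.42 and 1.94 in the regenerated pair (1.13, SE 0.081, and 1.16 without its spot in the outer rows). Tpm1, the alpha-tropomyosin gene, stood at 11.2 in normal, 7.40 in overloaded, 5.35 in regenerated and 11.6 in regenerated overloaded muscle (1.71, SE 0.077). A second probe of Tpm1 gave 0.09, so its difference depends on the probe; the gene has several spliced forms. Myl11, a fast regulatory myosin light chain, passed 2-fold in regenerated muscle alone (1.05 against 0.14) but not in the difference of differences (0.90). Pvalb lay at 0.90 with the authors' factor.

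Actn3, the alpha-actinin of fast fibres, joined Myh4 on the other side. Its signal was 0.808 in normal, 3.22 in overloaded, 1.47 in regenerated and 1.28 in regenerated overloaded muscle. The overloaded array alone was high, 3.98-fold above normal muscle, while the regenerated pair differed 1.147-fold (-2.19, SE 0.092, and -2.18 without its spot in the outer rows). Atp2a1, the calcium pump of fast fibres, was lower by the same amount in both kinds of muscle (-0.75 each). Mylk2 (-0.51 and -0.54) and Myoz1 (-0.89 and -0.74), a kinase for myosin light chains and a Z-disc protein, were also near equal in normal and regenerated muscle.

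**Figure D2:**
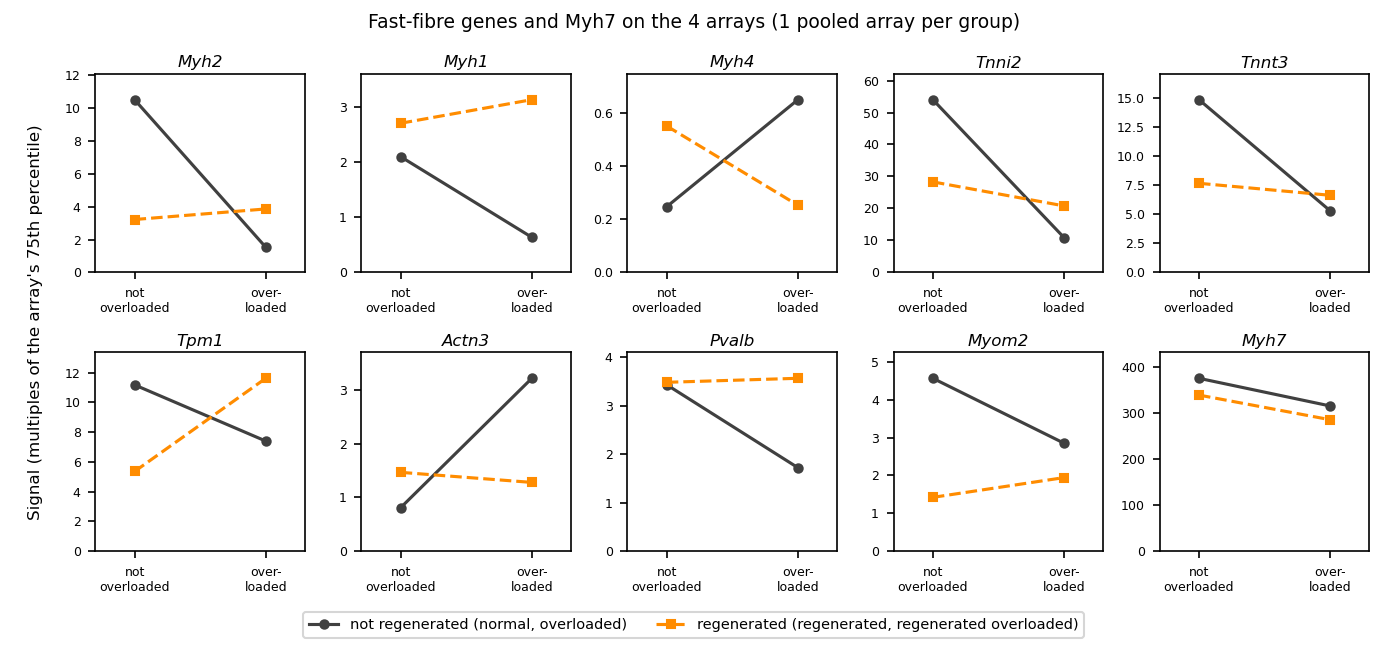
Signal (y axis, multiples of the array's 75th percentile, each panel from 0) of 9 fast-fibre genes and the slow myosin gene Myh7 without and with overload (x axis), 1 pooled array per point and no error bar between animals. For Myh2, Myh1, Tnni2, Tnnt3, Pvalb, Tpm1 and Myom2 the solid line of normal muscle slopes down while the dashed line of regenerated muscle slopes down less or upward; Myh4 and Actn3 show the reverse, and the lines of Myh7 run parallel.

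The slow and the developmental sarcomere lists each had a median of 0.09, beside 0.05 for all members, and both medians turned negative under another scaling. None of 15 slow contractile genes passed 2-fold in the difference of differences, near the shares of all members (0.379% higher and 0.424% lower). Pln, the phospholamban that restrains the calcium pump of slow fibres, came closest: it was 2.16-fold lower after overload in normal and 1.14-fold lower in regenerated muscle (0.92, SE 0.082). Regenerated muscle (1.46) lay near both overloaded arrays (1.496 and 1.28) and below normal muscle (3.22). Mb, the oxygen-binding protein myoglobin, differed by -0.30 in normal and 0.06 in regenerated muscle. Of 11 developmental sarcomere genes none passed the limit, again near those shares. The 2 largest by size were Nes (0.50) and Myh8 (0.47). After overload Nes was higher in both kinds of muscle (0.37 in normal and 0.87 in regenerated), whereas Myh8 was lower in both (-0.69 and -0.22). The embryonic myosin gene Myh3, with signals of 10.07 in normal, 31.0 in overloaded, 14.8 in regenerated and 36.9 in regenerated overloaded muscle, was higher after overload in both kinds (1.62 and 1.32), as was Tnnt2, the cardiac form of troponin T also made by growing muscle (1.21 and 1.42). The list's summed signal was 636 in normal, 546 in overloaded, 551 in regenerated and 535 in regenerated overloaded muscle.

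Among load-responsive muscle genes, 2 of 15 had a 2-fold higher response in regenerated muscle (against 0.379% of all members) and none a lower one, with a list median of 0.09 that turned negative under another scaling. Mustn1, a small nuclear protein of muscle and skeletal repair, had a signal of 19.8 in normal and 21.8 in overloaded muscle, against 13.6 in regenerated and 42.3 in regenerated overloaded muscle. Only the regenerated overloaded array was high, 3.10-fold above its unloaded counterpart (1.49, SE 0.033). Ankrd1, an ankyrin repeat protein that stretch induces in muscle, stood at 0.795, 0.909, 0.729 and 2.02 in the same order (1.28, SE 0.096). The other members of the list, among them Ankrd2 (-0.44 and -0.36), Csrp3 (-0.31 and -0.22) and the YAP partner Tead1 (-0.82 and -0.43), all lay within 2-fold in the difference of differences.

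Of 10 genes of tendon and cartilage, 5 were 2-fold higher in the difference of differences (against 0.379% of all members), 1 was lower (against 0.424%) and 4 passed neither limit. Of the 10, 7 lay above 0 and 3 below, and the list's median was 0.81. After overload the list's median was 0.29 in normal and 0.87 in regenerated muscle. The summed signal of the list was 49.1 in normal, 64.5 in regenerated, 74.4 in overloaded and 117 in regenerated overloaded muscle. Bright probes weigh most in such a sum, and the 5 genes past the limit on the higher side made up the smaller part of it on every array. Tendon or aponeurosis taken along with a muscle carries these genes, and the part that the amount of such tissue in each pool had in these values was not tested. Acan, Cilp2, Clec3a and Clec11a of this list were not well above background on at least 1 array.

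Fmod, the collagen-binding proteoglycan fibromodulin, had a signal of 9.65 in normal, 7.62 in overloaded, 8.39 in regenerated and 19.0 in regenerated overloaded muscle, so that one array stood above 3 similar ones (1.52, SE 0.077). Comp, the cartilage oligomeric matrix protein, likewise stood highest on that array, with 0.902, 0.722, 1.01 and 2.35 (1.54, SE 0.091). So did Chad, the matrix protein chondroadherin, with 0.592 in normal, 0.336 in overloaded, 0.631 in regenerated and 1.05 in regenerated overloaded muscle (1.55, SE 0.11). Tnmd, the tendon membrane protein tenomodulin, differed in that it was also higher after overload in normal muscle: it stood at 0.492 and 0.716 there, against 0.346 and 1.06 (1.07, SE 0.11). Kera, the proteoglycan keratocan, had 0.293 in normal, 0.317 in overloaded and 0.269 in regenerated overloaded muscle, and it was the regenerated array that was low, at 0.0978 (1.34, SE 0.17).

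Col11a1, a chain of the fibril-nucleating type XI collagen of cartilage and developing tendon, behaved as Fmod and Comp did rather than as the other collagens. Its signal was 0.262 in normal, 0.347 in overloaded, 0.253 in regenerated and 0.890 in regenerated overloaded muscle (1.41, SE 0.13), and a second probe gave 1.38. The tendon transcription factor Scx stood at 12.9 in normal, 11.0 in overloaded, 10.4 in regenerated and 13.0 in regenerated overloaded muscle (0.55, SE 0.08). It was thus lower after overload in normal and higher in regenerated muscle, but short of the limit. Cilp, the cartilage intermediate layer protein, was past the limit on the lower side and low in normal muscle alone: 0.463 there, 1.25 in overloaded, 1.22 in regenerated and 1.39 in regenerated overloaded muscle (-1.25, SE 0.10). Thbs4, a thrombospondin of tendon matrix (-0.28), and Chrdl1, a BMP antagonist (-0.23), also lay below 0. With normexp background correction Kera (0.89) and Tnmd (0.98) ended under 2-fold, and Tnmd did so also with the authors' factor (0.94).

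Most collagens and matrix genes lay below 0, with few past the limit. Of 12 collagens, 2 had a 2-fold lower response and 1, Col11a1, a higher one; of 35 matrix genes 4 had a lower response (against 0.424% of all members) and none a higher one. The collagens' median difference of differences was -0.64, from 1.21 in normal and 0.52 in regenerated muscle. For the matrix list it was -0.40, from 1.12 and 0.68, and 30 of its 35 members lay below 0. After overload 8 of the 12 collagens and 22 of the 35 matrix genes were 2-fold higher in normal muscle, against 2.57% of all members. In regenerated muscle 2 and 9 were, against 0.982%.

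In those past the limit on the lower side, regenerated muscle without overload stood above normal muscle, and the regenerated overloaded array stood as high as the overloaded one or higher. Col3a1, the chain of type III collagen, had 15.5 in normal, 47.7 in regenerated, 68.2 in overloaded and 85.1 in regenerated overloaded muscle (-1.31, SE 0.074). Col5a1, of the fibril-regulating type V collagen, had 0.598, 1.51, 1.70 and 1.95 in that order (-1.13, SE 0.093). Col1a1, the main type I chain, was higher after overload in both, by 1.83 in normal and 1.07 in regenerated muscle (-0.77). The summed signal of the 12 collagens ran from 97 in normal through 212 in regenerated and 270 in overloaded to 368 in regenerated overloaded muscle.

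Mfap2, a glycoprotein of elastic microfibrils, was dim on all arrays, at 0.0754 in normal, 0.194 in regenerated, 0.275 in overloaded and 0.289 in regenerated overloaded muscle (-1.29, SE 0.14). Mmp14, the membrane-bound metalloproteinase that activates other matrix proteases, had 1.37, 3.31, 6.61 and 7.73 in the same order (-1.04, SE 0.035). Postn, the matrix protein periostin, had the widest overload response of the 4, from 0.334 to 2.88 in normal and from 1.35 to 5.55 in regenerated muscle, which is 8.61-fold and 4.12-fold (-1.06, SE 0.11). Ccn5, a matricellular protein of the CCN family, went from 0.112 to 0.447 and from 0.620 to 1.18 (-1.07, SE 0.084).

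A ratio and a difference in signal do not rank these genes alike. Counted as a difference in scaled signal rather than a ratio, the overload step of Postn was larger in regenerated muscle (4.20) than in normal muscle (2.54), and so was that of Ccn5 (0.560 against 0.335). For Col3a1 the step was 37.3 against 52.8, for Mmp14 4.42 against 5.24 and for Sfrp4 2.61 against 3.19, smaller in regenerated muscle on that scale too. With normexp, Mfap2 (-0.59), Ccn5 (-0.43), Postn (-0.78), Mmp14 (-0.96) and Col5a1 (-0.99) ended under 2-fold, and Col3a1 (-1.32) did not.

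Of 17 Wnt genes, 2 secreted modulators had a 2-fold lower response in regenerated muscle (against 0.424% of all members). Sfrp4, a decoy that binds Wnt proteins, had a signal of 0.612 in normal, 1.97 in regenerated, 3.80 in overloaded and 4.59 in regenerated overloaded muscle (-1.42, SE 0.091). Its relative Sfrp2 was dim, with 0.0719, 0.189, 0.331 and 0.399 in that order (-1.13, SE 0.30, and -0.47 with normexp). Both were higher after overload in both kinds of muscle, by 2.63 and 1.22 for Sfrp4 and by 2.20 and 1.08 for Sfrp2. The list's median was -0.06, with a sign that turned under another scaling. Cpz, a carboxypeptidase with a Frizzled-like domain, had 0.121, 0.422, 0.670 and 0.916 in normal, regenerated, overloaded and regenerated overloaded muscle (-1.36, SE 0.19, and -0.76 with normexp).

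**Figure D3:**
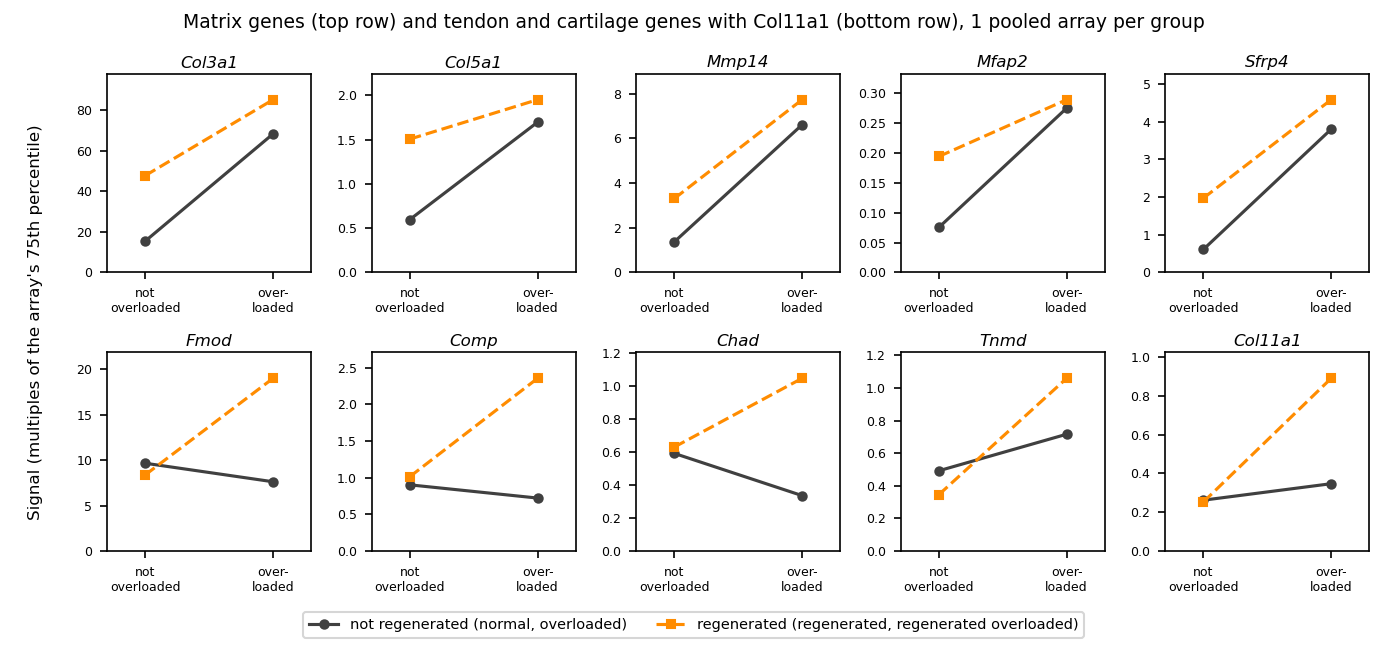
Signal (y axis, multiples of the array's 75th percentile, each panel from 0) of 5 matrix and Wnt-modulator genes (top) and of 4 tendon genes with Col11a1 (bottom) without and with overload (x axis), 1 pooled array per point. In the top row the dashed line of regenerated muscle starts above the solid line of normal muscle and ends near or above it; in the bottom row both lines start near each other and the regenerated overloaded point stands highest, as for Fmod at 19.0 against 7.62 to 9.65.

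Interferon-stimulated genes, which cells switch on in defence against viruses, mostly had a smaller overload difference in regenerated than in normal muscle. Of 40 listed genes 25 were members, and 23 of these 25 lay below 0 in the difference of differences. The median was -0.59, from 0.67 for overload in normal and 0.09 in regenerated muscle. Counted at 2-fold, 1 of the 25 was past the limit on the lower side (against 0.424% of all members). In normal muscle 5 were 2-fold higher after overload (against 2.57%), and in regenerated muscle none was, which is near the share of 0.982% over all members. Under the other scalings the median lay between -0.72 and -0.54, and it was -0.40 with normexp. Of the other listed genes 8 were not well above background on at least 1 array, 2 were printed once and 5 had no probe matched to their symbol.

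RefSeq promoter windows of build GRCr8 were at hand for 19 of the 25 members. The core of the interferon-stimulated response element, searched as GAAANNGAA on both strands, stood in 13 of these 19 windows (68.4%) and in 9.50% of all 27457 windows of the same length. The stretches around the match nearest the start are shown for the 4 members with the largest difference of differences that held one upstream. Each is printed 5′ to 3′ on the gene's strand, with matches in capitals, which here read as the reverse complement of the searched letters. They lie at chr1:205800053-205800121 (minus strand) for Irf7, chr12:47383297-47383365 (minus) for Oasl2, chr1:241527272-241527325 (plus) for Ifit3 and chr2:243303841-243303895 (minus) for Ifi44, all in the region before the annotated start. A match describes the letters only. The list is made of genes known to respond to interferon, so its share of matches says nothing of overload.
Irf7: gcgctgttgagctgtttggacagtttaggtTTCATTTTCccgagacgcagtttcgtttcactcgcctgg
Oasl2: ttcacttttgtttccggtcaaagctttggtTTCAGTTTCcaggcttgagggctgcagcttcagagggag
Ifit3: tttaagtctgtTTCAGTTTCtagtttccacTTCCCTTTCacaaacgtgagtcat
Ifi44: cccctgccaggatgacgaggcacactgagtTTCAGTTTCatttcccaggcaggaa

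Isg15, a ubiquitin-like protein induced by interferon, was the member past 2-fold, with a signal of 0.326 in normal, 0.931 in overloaded, 0.429 in regenerated and 0.539 in regenerated overloaded muscle. The overloaded array alone was high, 2.85-fold above normal against 1.26-fold in the regenerated pair (-1.18, SE 0.12, and -0.98 with normexp). Mx1, a GTPase that blocks viral replication, showed the same order, with 0.713, 1.58, 0.851 and 0.967 (-0.96, SE 0.095). Irf7, the transcription factor that amplifies the interferon response, had 0.546 in normal and 1.08 in overloaded muscle but 0.859 and 0.856 in the regenerated pair (-0.995, SE 0.096), which leaves it just short of the limit. Rtp4, a receptor-transporting protein, stood at 0.225, 0.493, 0.344 and 0.426 (-0.825, SE 0.064).

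The remaining interferon genes spread from this pattern to none. Rsad2, the antiviral enzyme viperin, was 1.19 higher after overload in normal and 0.55 in regenerated muscle. Cxcl9, a chemokine for T cells, differed by 0.13 in normal and -0.59 in regenerated muscle. Oasl2 and Ifit3, whose promoters are shown above, lay at -0.86 (SE 0.23) and -0.79 (SE 0.45), and both were dim, with signals between 0.06 and 0.19. Irf9, a DNA-binding factor of the interferon response, lay near 0, at -0.10.

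Genes of antigen presentation mostly had negative differences of differences. None was past 2-fold, near the shares of all members (0.379% higher and 0.424% lower). For MHC class I the median over 13 members was -0.45 and 12 lay below 0; for MHC class II it was -0.50 over 8 members, 7 of them below 0. Psmb8, a subunit of the immunoproteasome that cuts peptides for class I molecules, had signals of 0.442 in normal, 0.777 in overloaded, 0.787 in regenerated and 0.829 in regenerated overloaded muscle, so that normal muscle alone was low (-0.74, SE 0.10). RT1-Bb, a class II beta chain of the rat, had 3.03, 4.17, 4.26 and 3.78 in that order (-0.63, SE 0.079). Cd74, the class II invariant chain, was higher after overload in both kinds of muscle, by 1.03 and 0.49. RT1 genes are a family of near-identical copies whose probes may not be specific.

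For macrophage and myeloid genes the median was -0.53 over 24 members, from 0.84 in normal and 0.27 in regenerated muscle, with 19 below 0. None was past 2-fold, near the shares of all members (0.379% higher and 0.424% lower). Cd68, a lysosomal protein of macrophages, had a signal of 0.906 in normal, 1.84 in overloaded, 1.88 in regenerated and 2.18 in regenerated overloaded muscle (-0.81, SE 0.085). Itgb2, the beta chain of leukocyte integrins, was dim, at 0.0927, 0.174, 0.180 and 0.170 (-0.99, SE 0.15, and -0.42 with normexp). The complement component C4a stood at 8.16, 17.1, 18.6 and 21.9 (-0.83, SE 0.074). In each of these the normal array was low and the other 3 lay closer together. The chemokines Ccl2 (1.21 and 1.28) and Ccl7 (0.94 and 0.94), which draw monocytes, had equal responses in normal and regenerated muscle. The list's summed signal was 81.2 in normal, 123 in regenerated, 135 in overloaded and 156 in regenerated overloaded muscle. The summed signal of the interferon list was 115 in normal, 112 in regenerated, 120 in overloaded and 115 in regenerated overloaded muscle. After overload in normal muscle 4 of 24 myeloid, 5 of 25 interferon and 2 of 8 class II genes were 2-fold higher, against 2.57% of all members. None of 13 class I genes was, which is near that share. The part of myeloid markers in the interferon and antigen presentation values was not tested.

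Of 8 mast cell and basophil genes, 2 proteases had a 2-fold lower response in regenerated muscle (against 0.424% of all members). Mcpt8 had a signal of 0.502 in normal, 1.36 in overloaded, 2.42 in regenerated and 2.76 in regenerated overloaded muscle (-1.25, SE 0.096), and Mcpt9 one of 0.196, 0.615, 1.05 and 1.18 (-1.47, SE 0.13). Both regenerated arrays were high whether or not the muscle was overloaded. Other mast cell genes lay nearer 0: Cma1, the chymase gene, was at -0.27, Cpa3, the mast cell carboxypeptidase, at -0.15 and Tpsab1, a tryptase, at 0.46. The list's median was -0.26, while Kit, Fcer1a and Ms4a2, the receptors that define mast cells, were not well above background on at least 1 array. Mcpt8 and Mcpt9 belong to a cluster of similar genes.

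**Figure D4:**
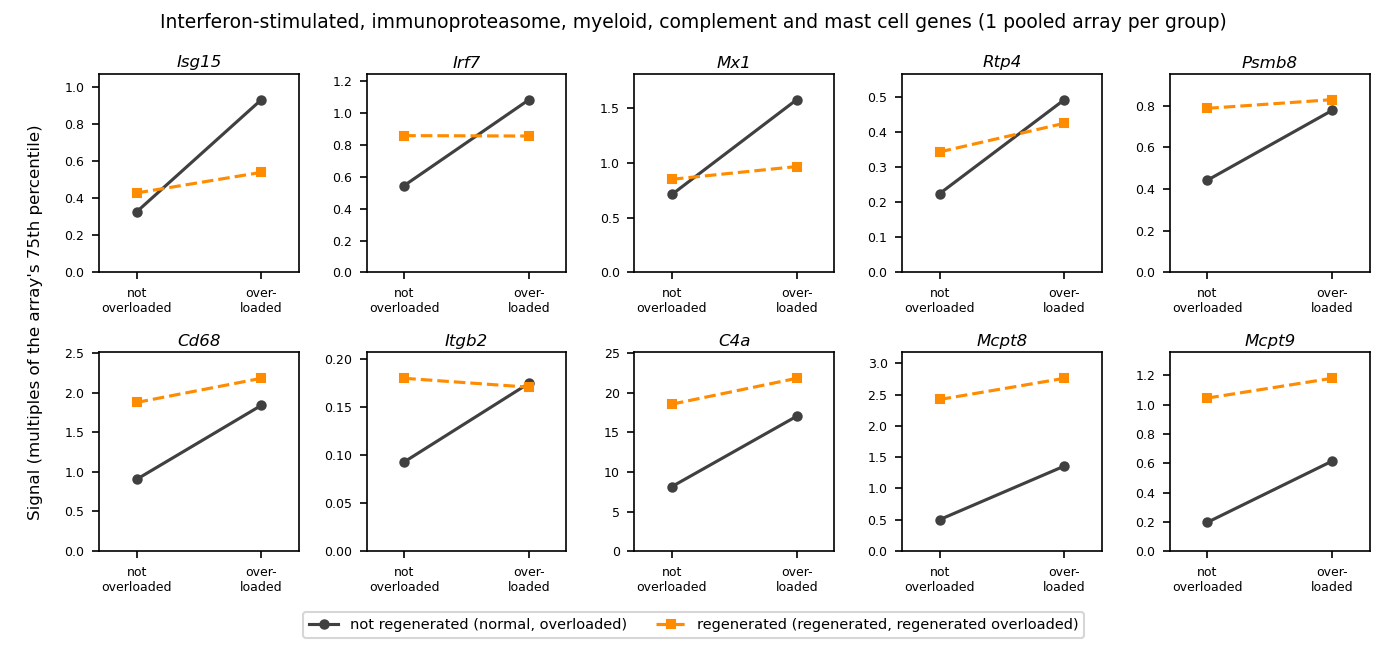
Signal (y axis, multiples of the array's 75th percentile, each panel from 0) of 4 interferon-stimulated genes, the immunoproteasome gene Psmb8, the myeloid genes Cd68 and Itgb2, the complement gene C4a and the proteases Mcpt8 and Mcpt9 without and with overload (x axis), 1 pooled array per point. The solid line of normal muscle slopes up in every panel while the dashed line of regenerated muscle is flatter; Isg15 and Mx1 end highest in overloaded muscle, Mcpt8 and Mcpt9 are highest in both regenerated groups.

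Several genes of other roles were past 2-fold after overload in normal muscle and well within it in regenerated muscle, where Cdkn1c was 1.27-fold higher. Cdkn1c, the cell cycle inhibitor p57, had a signal of 1.03 in normal and between 3.12 and 4.04 on the other arrays (3.12 in regenerated, 4.04 in overloaded, 3.96 in regenerated overloaded muscle), which gave -1.62 (SE 0.082), and a second probe gave -1.60. Scd, the desaturase that makes monounsaturated fatty acids, likewise had 0.171 in normal and 0.533 to 0.562 on the other 3 arrays (-1.69, SE 0.14). Anpep, an aminopeptidase of cell membranes, had 0.183 in normal against 0.431 to 0.497 (-1.42, SE 0.14, and -1.001 with normexp). Normal muscle was the low array in all 3, and regenerated muscle lay close to both overloaded groups before any load.

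Apoe, the lipid carrier apolipoprotein E, had 11.495 in normal, 41.7 in overloaded, 50.4 in regenerated and 67.8 in regenerated overloaded muscle, a 3.62-fold step in normal and a 1.35-fold step in regenerated muscle (-1.43, SE 0.074). Gdf10, a ligand of the TGF-beta family, was dim, at 0.109, 0.247, 0.412 and 0.457 in that order (-1.02, SE 0.087, and -0.47 with normexp). Pcsk1n, an inhibitor of prohormone convertase, was higher after overload in normal muscle (0.0878 to 0.249) and lower in regenerated muscle (0.186 to 0.132), a difference of differences of -2.001 (SE 0.32), or -0.93 at the smallest difference its spots allow. Enc1, an actin-binding protein, was the one named gene that was 2-fold lower after overload in regenerated muscle alone: it was high there before overload, at 1.29, and between 0.607 and 0.649 on the other arrays (-1.04, SE 0.045, and -0.92 with a second probe). Inhba, the activin A subunit, stood at 0.785 in normal, 0.503 in overloaded, 0.587 in regenerated and 0.776 in regenerated overloaded muscle (1.05, SE 0.11). It ended under 2-fold with normexp (0.85) and with the authors' factor (0.92).

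Some genes were past 2-fold in 1 kind of muscle and under 0.26 in the other. In normal muscle alone 25 genes were higher and 8 lower, and in regenerated muscle alone 9 were higher and 2 lower. Actn3, Mcpt9, Scd, Mcpt8 and Cilp led the first set, and Lnx1, Myh1, Mup4l4, Tnnt3 and Acad9 the second. Of the 9 higher in regenerated muscle alone, Mustn1, Ceacam16, Ankrd1, Kera and Slc22a4 led. Ceacam16, an adhesion molecule of the carcinoembryonic antigen family, had a signal of 0.304 in normal, 0.356 in overloaded, 0.153 in regenerated and 0.430 in regenerated overloaded muscle (1.26, SE 0.15). Slc22a4, a transporter of organic cations, was dim, at 0.103, 0.103, 0.0449 and 0.112 in that order (1.31, SE 0.31, and 0.67 with normexp). As with Kera, the regenerated array was the low one in both, and the other 3 lay closer together.

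Other genes responded to overload alike. In all, 31 genes were 2-fold higher or lower in the same direction in both kinds of muscle with a difference of differences under 0.3. Fos, the immediate early transcription factor, had a signal of 0.327 in normal and 1.102 in overloaded muscle, and of 0.279 and 0.863 in the regenerated pair (1.752 and 1.63 on the log2 scale). Klk1, the kallikrein that releases kinins, went from 0.480 to 1.74 and from 0.479 to 1.55, and its near-identical relative Klk1c2 from 0.155 to 0.561 and from 0.155 to 0.490. Spon1, a matrix protein (1.89 and 1.86), C1qtnf3, an adipokine of the complement C1q family (1.72 and 2.005), and Stmn2, a tubulin-binding protein of neurons (1.62 and 1.55), completed the named set. For Fos and both kallikreins the 2 unloaded arrays were alike and the 2 overloaded arrays were alike.

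Genes of the major urinary proteins, small lipocalins that carry pheromones, were low on the overloaded array alone. Mup5 had 0.192 in normal, 0.0447 in overloaded, 0.226 in regenerated and 0.177 in regenerated overloaded muscle (1.76, SE 0.31, and 0.85 with normexp), and Mup4l4 had 0.380, 0.117, 0.466 and 0.394 (1.46, SE 0.15). The family's genes are near-identical, so both probes may report the same transcripts. Lnx1, a ubiquitin ligase, reached 2.16 (SE 0.35) but had 1 of its 2 spots in the outer rows of the array, and the other spot gave 0.72. The genes next to the limit were Acad9 (1.01) inside and Rhbdl2 (0.9995) outside on the higher side, and Slpi (-1.01) inside and Pltp (-0.999) outside on the lower side.

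Over all 38 gene lists the medians of the difference of differences ran from -0.64 for the collagens to 0.81 for the tendon and cartilage list. Tendon and cartilage and fast contractile were the 2 lists with a median above 0.2. Below -0.3 were the collagens, the interferon, macrophage, both MHC, matrix, complement, lymphocyte (-0.35, 6 members, and -0.08 with normexp) and fibroblast (-0.34, 10 members) lists. The lists of energy metabolism lay near the median of all members, with 0.12 for 42 genes of oxidative phosphorylation and the TCA cycle, -0.03 for 28 genes of fatty acid use and 0.15 for 26 genes of glycolysis. In each of these 3 the sign turned under another scaling and no member passed 2-fold. The myogenic regulators (0.01), neuromuscular junction genes (-0.06), heat shock genes (0.16) and atrophy genes (0.17) had no member past 2-fold either, and the sign of the first of these also turned under another scaling. For lists of these sizes, no member past 2-fold is near the shares of all members (0.379% higher and 0.424% lower).

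**Figure D5:**
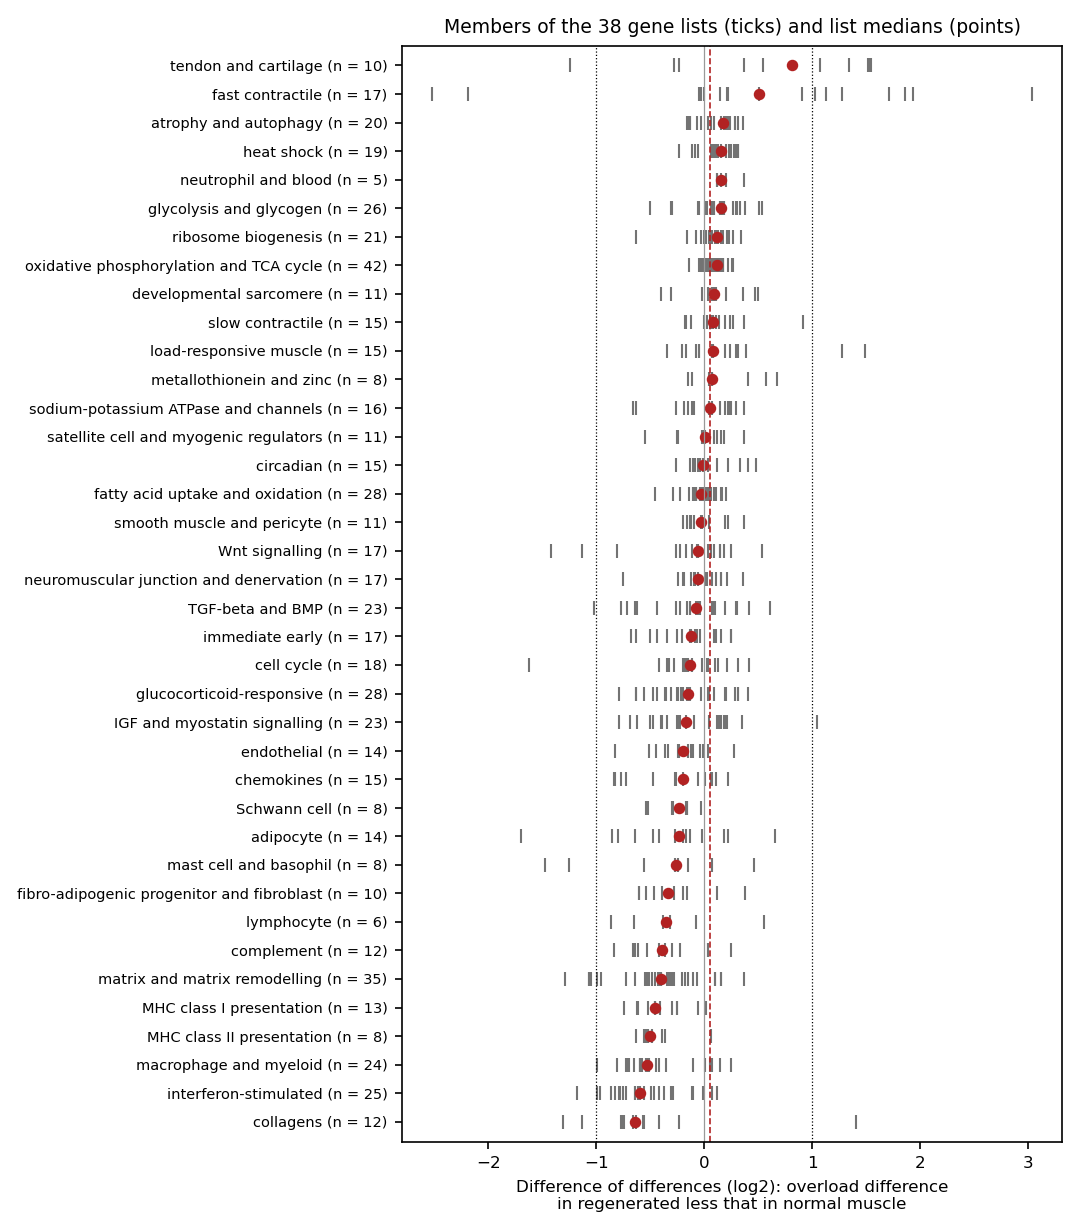
Difference of differences on the log2 scale (x axis) of every member of the 38 gene lists (y axis, number of members in parentheses); ticks are genes and red points list medians. The red dashed line is the median of all 8961 members (0.05) and the dotted lines mark 2-fold; the medians of the tendon and cartilage list (0.81) and the fast contractile list (0.51) stand farthest right and those of the collagens (-0.64) and interferon-stimulated genes (-0.59) farthest left.

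A signal that differs between these 4 pools is not shown to differ between animals. Of the 63 genes past the limit that carry a symbol, 7 had a further probe above background on all arrays, and the 7 further probes all had the same sign, 5 of them past 2-fold. For 15 of the 72 genes at least 1 spot lay in the array's outer rows. With the smallest difference that the spots of each probe allow, 41 of the 72 stayed past 2-fold, and with normexp 34 did.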

How the data were processed

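RNA from rat soleus was hybridised to 4 one-colour Agilent arrays, 1 pool of 6 muscles per group. Each array holds 58717 probe spots. Per the file headers, the scanner software was Feature Extraction 11.5.1.1 with the protocol GE1_1105_Oct12 and build rn4, while version 10.10.1.1 stands in the submitters' processing notes. The deposited processed signal, median signal and local background are fluorescence intensity values, and the deposited flags (other) mark spots that are outliers, saturated or well above background. The deposited series table gives the authors' intensity, which is the processed signal multiplied by a constant of each array's own (1.95 to 2.14); its basis is not given in the sources used here.

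No spot was saturated, and those marked as outliers (406 to 451 per array) were dropped. Each spot's log2 processed signal was reduced by the log2 of its array's 75th percentile, spots were averaged per probe, probes with 2 or more spots and more than 50% of them well above background on every array were kept (9602), and each gene was read from its brightest kept probe. Accessions matched 18635 of 30367 probes to symbols in RefSeq's GRCr8 table; unmatched transcripts enter counts and are not named. Technical SE came from spot variance pooled in 20 bins of signal. With 1 array per group no test was run, and precision is limited by the number of arrays.

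Alternatives were scaling to the median, quantile and cyclic loess normalization, the authors' constant, normexp background correction (limma 3.58.1 in R 4.3.3, offset 50), median signal less background, other probe, spot and filter choices, and limits of 1.5-fold and 3-fold. The files hold no mean signal, so normexp used the median signal. Counting was done with pandas 2.3.3 in Python 3.11.15 and was tested on simulated data. The genes and the 38 lists were chosen with earlier results of these data known. Genes were named by rule: the 12 largest in each direction past 2-fold and 3 SE, list members past 2-fold (or the 2 largest of a list without one), genes going opposite ways, the 6 largest shared responses, up to 5 per direction past 2-fold in one kind of muscle and under 0.26 in the other, and those next to the limit. Further list members are given as examples and were picked after their values were seen.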

Additional observations from a re-analysis of the deposited data

Results flagged for a closer look

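Myh4, the heavy chain gene of the 2B myosin, was the only one of 8961 genes past 2-fold in opposite directions. Its log2 overload difference was 1.39 in normal and -1.12 in regenerated muscle. With 1 pooled array per group the difference between these was not tested. The probe has 2 spots, 1 of them in the outer rows of the array, and both the smallest difference the spots allow (-2.28) and the value with normexp (-1.84) stayed past 2-fold.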

How the results depend on the processing

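Of the 72 genes past 2-fold in the difference of differences, between 63 and 66 stayed past it under the other scalings, 50 with median signal less background, 41 at the smallest difference between spots and 34 with normexp, none with a change of sign. Leaving out spots in the outer rows while allowing 1 spot, an alternative chosen after seeing the data, kept 67 of 71, and 1 unnamed transcript changed sign. On the linear scale Postn (1.66) and Ccn5 (0.23) reversed.

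Counts that moved by over 1.5 times are given in the order of the difference of differences higher and lower (34 and 38), normal muscle higher and lower (230 and 39) and regenerated muscle higher and lower (88 and 18). With normexp they were 18, 17, 100, 18, 54 and 8. Without the filter on dim probes they were 2273, 570, 661, 2344, 396 and 281. At 1.5-fold they were 118, 311, 812, 267, 309 and 148, and at 3-fold 7, 7, 48, 9, 21 and 2. Median scaling gave 59 lower in normal muscle. The authors' factor gave 68 lower in the difference of differences, and 416 higher and 14 lower in normal muscle. Median signal less background gave 22 lower in the difference of differences and 10 lower in regenerated muscle. Probes printed once brought 54 and 56 in the difference of differences (the second within 1.5 times), 74 lower in normal and 36 lower in regenerated muscle. The smallest difference between spots gave 18 lower in the difference of differences, 151 higher and 22 lower in normal muscle, and 8 lower in regenerated muscle. The cause of these shifts was not tested. Filters and limits change which genes could be counted by construction.

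No paired analysis was possible because each group has 1 array. Signal over background limits dim genes, whose differences shrink with normexp.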

Other observations

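Among genes outside the naming rule, chosen after their values were seen, Ccdc80, a matrix protein of adipose and connective tissue, had a signal of 7.02 in normal, 21.1 in overloaded, 19.8 in regenerated and 28.2 in regenerated overloaded muscle (-1.08, SE 0.033, from 10 spots). Siglec1, the sialic acid receptor of macrophages, stood at 0.133, 0.330, 0.307 and 0.353 in that order (-1.11, SE 0.089), and Fgf18, a growth factor for cartilage and bone, at 0.176, 0.312, 0.418 and 0.326 (-1.19, SE 0.15). All 3 were lowest in normal muscle. Cpxm2, a carboxypeptidase-like matrix protein, was high on the regenerated overloaded array alone, at 2.50 against 1.31 to 1.45 (1.06, SE 0.038, with a spot in the outer rows). Pla2g7, the enzyme that inactivates platelet-activating factor, was high in normal muscle alone, at 2.43 against 1.14 to 1.299 (1.20, SE 0.085).

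The largest difference of differences of any member belonged to a transcript without a matched symbol, which had a signal of 31.8 in regenerated muscle, 1.38 in regenerated overloaded muscle, 0.131 in normal and 0.112 in overloaded muscle (-4.31, SE 0.21). Motifs were searched for 2 further lists. The E-box CACGTG stood in the windows of 2 of 14 circadian members (14.3%) and in 6.65% of all windows, and ACANNNTGT, from the glucocorticoid response element, in 3 of 25 glucocorticoid-responsive members (12%) and in 6.599% of all windows. The glucocorticoid-responsive list had a median of -0.15, with -0.31 after overload in normal and -0.48 in regenerated muscle. None of its 28 members was past 2-fold in the difference of differences, near the shares of all members (0.379% higher and 0.424% lower).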
